A study of Mus musculus with 12 samples.

Results

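The genes described here encode the tight junctions, adherens junctions and desmosomes that join colonic epithelial cells to each other. They are 35 genes taken by symbol from a fixed list, out of 55471 genes in the deposited table. The list was drawn up by function, with earlier results of these data known. By role they were 9 adherens junction genes, 6 desmosome genes, 10 claudin genes (with Epcam, whose product binds claudin-7), 4 other tight junction membrane proteins, 3 tight junction scaffolds and 3 polarity genes. Of these, 34 had enough reads to be tested among 14610 tested genes, and Cldn1 did not.

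RNA of colonic crypts from 12 C57BL/6J mice was sequenced, with 1 library per mouse and 3 mice in each of 4 groups. CBPWTp53-floxed mice carried unmodified CBP and a floxed Trp53 gene, and in CBPAAp53-floxed mice serines of CBP (encoded by Crebbp) that are normally phosphorylated were replaced with alanines in every cell of the animal. In CBPWTp53ΔIEC and CBPAAp53ΔIEC mice Trp53 was also deleted by Villin-Cre, which is active in epithelial cells along the whole intestine. All 4 groups carried floxed Trp53. The floxed mice are not described as carrying Cre, so Cre and the loss of p53 cannot be told apart. The study's methods name females for crypt isolation, and the labels of the libraries give neither age nor sex. Total counts ran from 11177430 to 18029125 per library.

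Epithelial cells are sealed at their apical side by tight junctions, where claudins form strands that either close the space between cells or open small pores in it, and occludin and scaffold proteins such as ZO-1 organise the strands. Below them, adherens junctions hold cells together through E-cadherin and its catenins, and desmosomes tie the intermediate filaments of neighbouring cells through desmogleins, desmocollins, plakophilins and desmoplakin. In the colon these complexes form the barrier between the lumen and the tissue.

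Several libraries differed in ways the groups do not explain, and these values bear on the results that follow. Trp53 counts ran from 437 to 934 in the 6 floxed libraries and from 79 to 141 in the 6 p53ΔIEC libraries, so the deletion labels and the counts go the same way, while Crebbp checks nothing because the CBP change is a substitution. The 10 epithelial markers (the members Epcam and Cdh17 among them) summed to between 16066 and 22770 TPM (a level corrected for gene length and for the size of the library) in every library, against at most 9.36 TPM for 16 stromal markers, 2.82 TPM for 10 endothelial markers and 31.2 TPM for 15 leukocyte markers. A list of 20 small intestine genes summed to 18803 TPM in CBPWTp53ΔIEC replicate 1, 7389 in CBPAAp53ΔIEC replicate 3, 4095 in CBPAAp53-floxed replicate 2 and 3605 in CBPAAp53ΔIEC replicate 1, and to between 844 and 1854 in the other 8 libraries. Not every gene of this list was low in these crypts. Fabp2 was at 613 TPM or more in every library, so the sum does not measure small intestine tissue alone. Levels also leaned towards short genes in CBPAAp53-floxed replicate 2 and CBPWTp53ΔIEC replicate 1, where the rank correlation between exon length and level relative to the gene's mean was -0.428 and -0.314 across all tested genes, against -0.054 to 0.303 in the other 10 libraries. These are correlations across genes within 1 library, and genes are not independent replicates.

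The junction genes were abundant transcripts. Their median level was 82.3 TPM, against 12.3 TPM for all tested genes. Their median coefficient of variation over the 12 libraries was 13.5%, against 18.8% for all tested genes and 15.8% for the 10305 tested genes at or above the level of the lowest tested junction gene. Epcam, a homophilic adhesion molecule of epithelia, was the highest at 1265 TPM on average, followed by Cldn3 at 1113 TPM and Cldn7 at 995 TPM. Cdh1 (E-cadherin) averaged 526 TPM, Cdh17 (LI-cadherin) 332 TPM, Cldn15 310 TPM and Cldn2 261 TPM. At the low end lay Nectin4 at 4.90 TPM, Nectin1 at 7.40 TPM and the polarity gene Pard3 at 8.17 TPM. Cldn1 had 1 read in each of 2 libraries and 0 in the other 10, so it was not detectable as expressed at this depth. The order of neighbouring genes in level was mostly within their spread: of 33 neighbouring pairs in the order of mean TPM, 2 had ranges over the 12 libraries that did not overlap, which were Cldn7 above Cdh1 and Cdh1 above Cdh17.

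**Figure D1:**
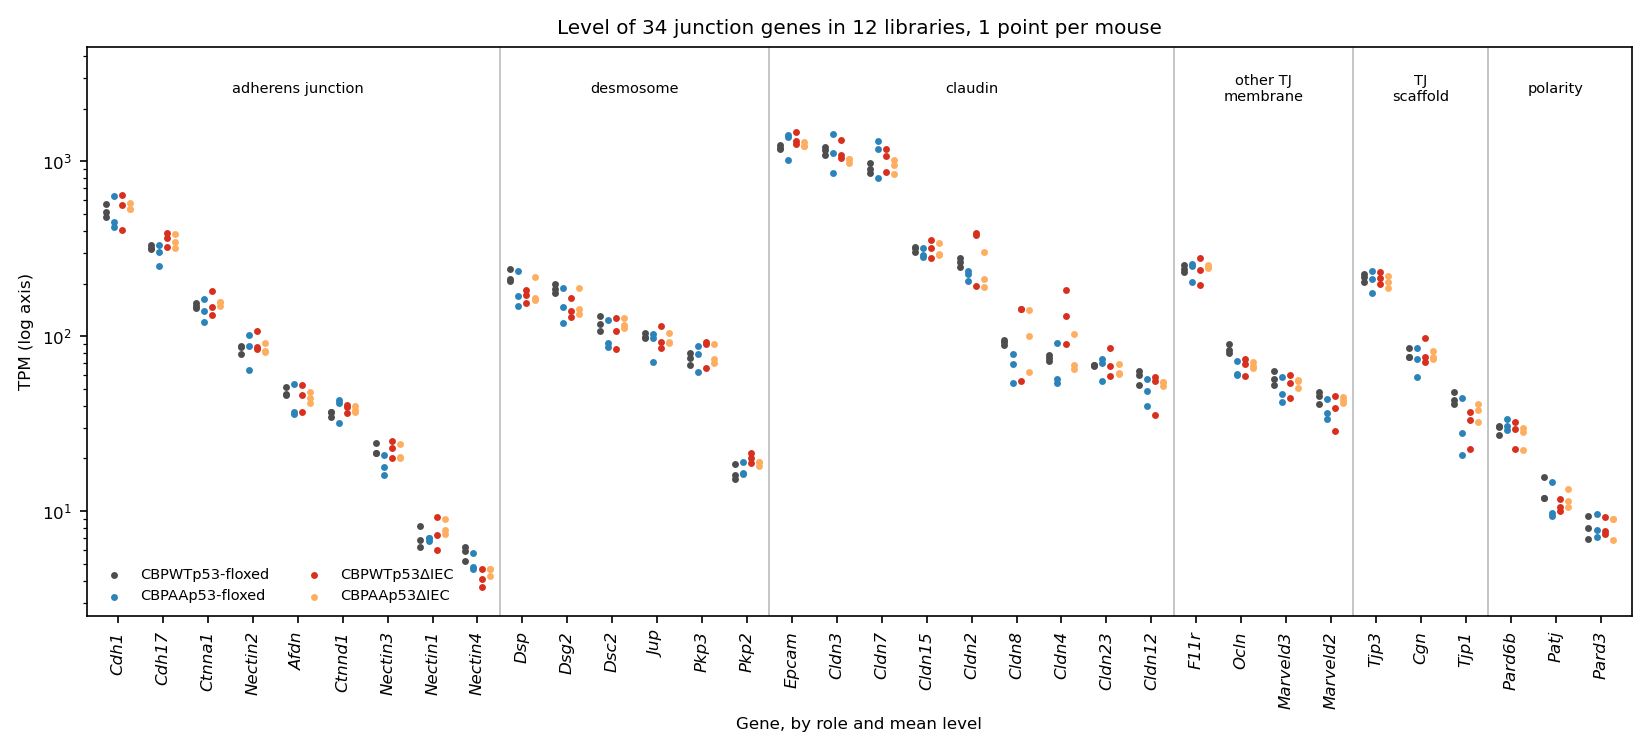
TPM (log axis) of the 34 tested junction genes in each of the 12 libraries, with 1 point per mouse, coloured by group and ordered by role and mean level. Mean levels span from 1265 TPM for Epcam to 4.90 TPM for Nectin4, and within most genes the colours overlap; Cldn4 and Cldn8 spread most.

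No junction gene passed the test in any of the 7 comparisons. The test was edgeR's quasi-likelihood test with Benjamini-Hochberg adjustment over all tested genes, and a gene was called when its adjusted p was below 0.05 and its log2 fold change lay outside -0.5 to 0.5. In CBPAAp53-floxed vs. CBPWTp53-floxed, 0 of 34 junction genes were called, where 0% of all tested genes were. In CBPWTp53ΔIEC vs. CBPWTp53-floxed the count was also 0 of 34, with 3.15% of all tested genes called. In CBPAAp53ΔIEC vs. CBPAAp53-floxed it was 0 of 34 against 0.0274%, and in CBPAAp53ΔIEC vs. CBPWTp53ΔIEC 0 of 34 against 0.00684%. Averaged over both CBP genotypes, p53 deletion gave 0 of 34 against 3.50%. The CBP genotype averaged over both p53 states and the interaction of both factors each gave 0 of 34 against 0.00684%.

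At an unadjusted p under 0.05 edgeR counted 2 of 34 junction genes in CBPAAp53-floxed vs. CBPWTp53-floxed against 8.04% of all tested genes, 5 against 20.9% in CBPWTp53ΔIEC vs. CBPWTp53-floxed, 1 against 12.6% in CBPAAp53ΔIEC vs. CBPAAp53-floxed and 2 against 3.57% in CBPAAp53ΔIEC vs. CBPWTp53ΔIEC. For averaged p53 deletion it counted 4 of 34 against 21.9%, for the averaged CBP genotype 2 against 2.57% and for the interaction 3 against 10.3%. DESeq2, the other tool run, called 1 of 34 (Cldn4) in CBPWTp53ΔIEC vs. CBPWTp53-floxed, where it called 6.17% of the genes to which it gave an adjusted p. It called no junction gene in the other 6 comparisons, out of 34 or 35 to which it gave an adjusted p. The share called is again of all genes with an adjusted p, whose number ran from 13457 to 27137 over these comparisons. It was 0.122% in CBPAAp53-floxed vs. CBPWTp53-floxed, 0.542% in CBPAAp53ΔIEC vs. CBPAAp53-floxed and 0.00369% in CBPAAp53ΔIEC vs. CBPWTp53ΔIEC. For averaged p53 deletion it was 5.06%, for the averaged CBP genotype 0.0184% and for the interaction 0.207%. Libraries were compared in CPM, which are counts scaled by TMM to a common library size and not corrected for gene length. The 3 CPM values of each group did not overlap for 5 of 34 junction genes in CBPAAp53-floxed vs. CBPWTp53-floxed, where 19.4% of all tested genes did not overlap. The corresponding counts were 9 of 34 against 30.8% in CBPWTp53ΔIEC vs. CBPWTp53-floxed, 2 of 34 against 15.0% in CBPAAp53ΔIEC vs. CBPAAp53-floxed, and 2 of 34 against 9.26% in CBPAAp53ΔIEC vs. CBPWTp53ΔIEC. These differences from the share of all tested genes were not tested.

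A missed call leaves room for a change, and the 95% intervals give its size. The interval of the log2 fold change lay wholly between -0.5 and 0.5 for 26 of 34 junction genes in CBPAAp53-floxed vs. CBPWTp53-floxed, for 23 in CBPWTp53ΔIEC vs. CBPWTp53-floxed, for 27 in CBPAAp53ΔIEC vs. CBPAAp53-floxed and for 27 in CBPAAp53ΔIEC vs. CBPWTp53ΔIEC. For the averaged p53 deletion and the averaged CBP genotype it did so for 31 of 34 genes each, and for the interaction, which is less precise, for 11 of 34. Of all tested genes, 42.8%, 36.6%, 41.4%, 47.8%, 58.1%, 68.3% and 17.5% had such an interval in these 7 comparisons, in that order. Among the 10305 tested genes at or above the level of the lowest tested junction gene, it was 57.9%, 49.5%, 56.0%, 64.4%, 74.5%, 86.2% and 24.4%. These differences in share were not tested. The median log2 fold change of the junction genes was -0.01 in CBPAAp53-floxed vs. CBPWTp53-floxed, 0.04 in CBPWTp53ΔIEC vs. CBPWTp53-floxed, -0.05 in CBPAAp53ΔIEC vs. CBPAAp53-floxed and -0.07 in CBPAAp53ΔIEC vs. CBPWTp53ΔIEC, where all tested genes had medians of 0.01, 0.01, 0.01 and -0.01. It was -0.03 for averaged p53 deletion, -0.03 for the averaged CBP genotype and -0.06 for the interaction, where all tested genes had 0.01, -0.0017 and -0.02.

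**Figure D2:**
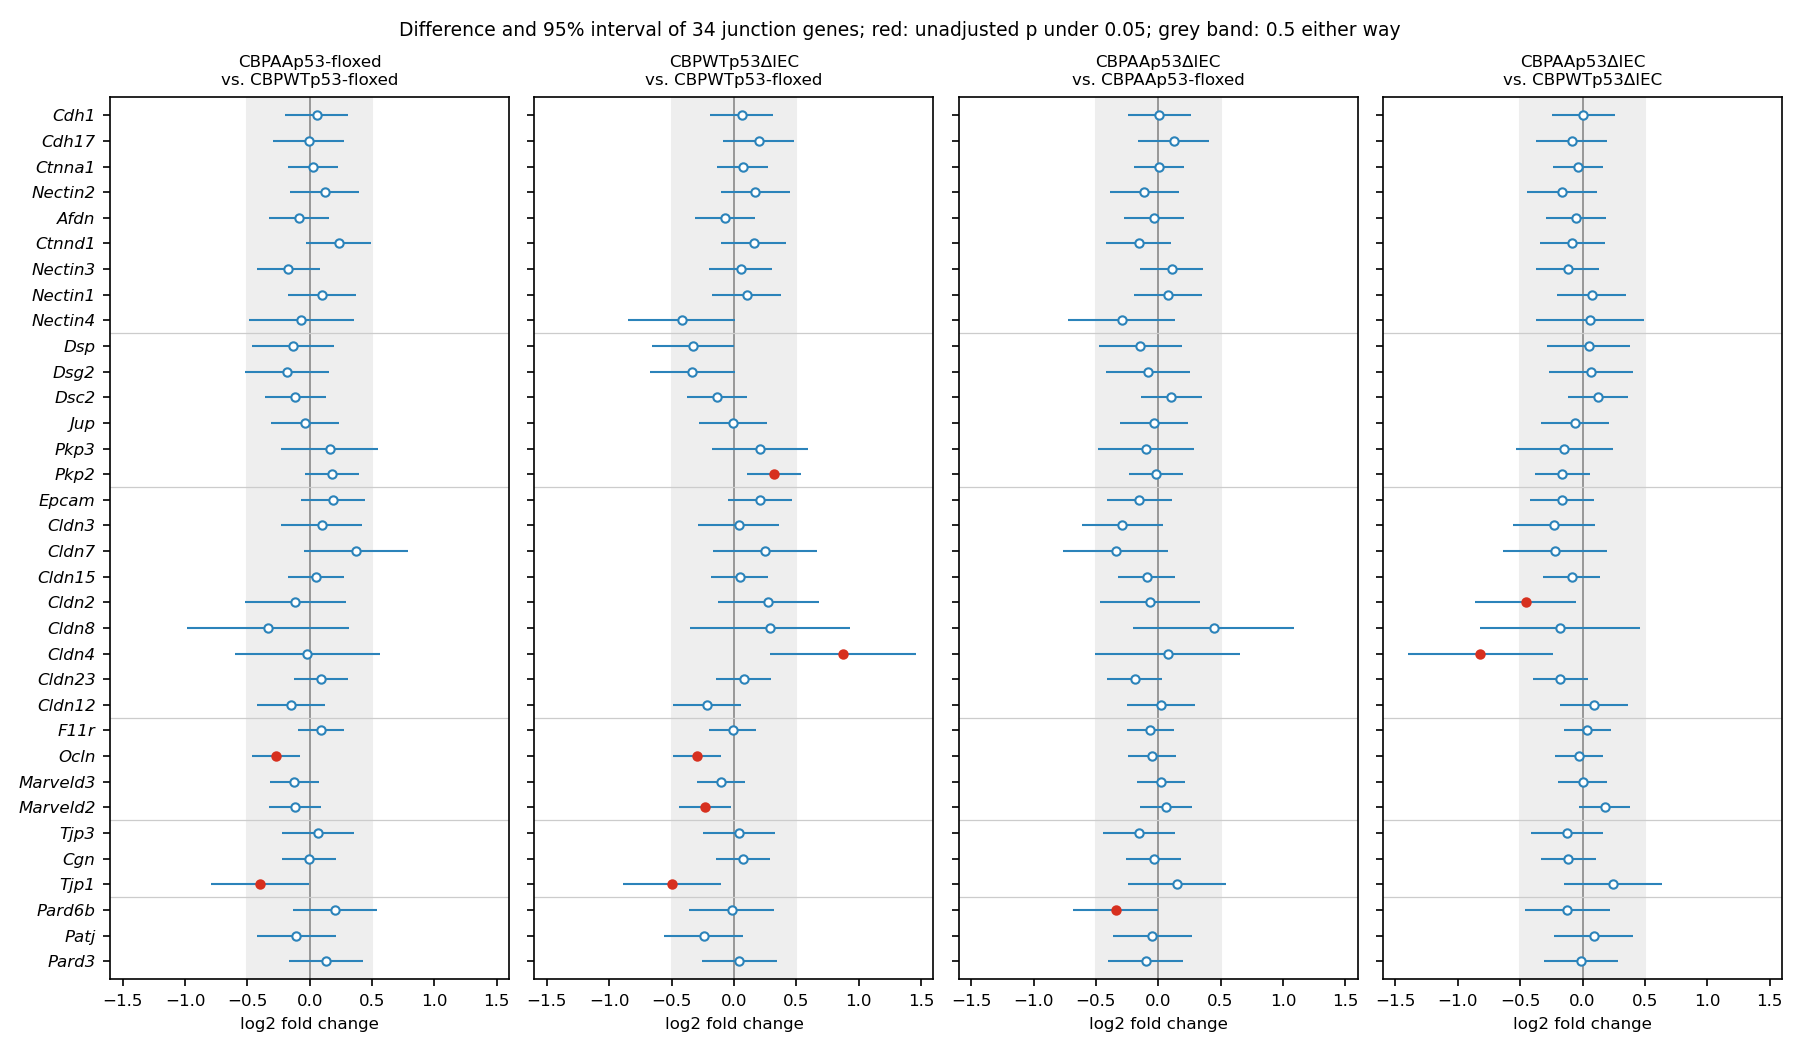
Log2 fold change (points) and its 95% interval (lines) of the 34 tested junction genes in the 4 comparisons of 2 groups, ordered by role; filled red points had an unadjusted p under 0.05 and the grey band spans 0.5 in either direction. Cldn4 in CBPWTp53ΔIEC vs. CBPWTp53-floxed lies farthest from 0, at 0.88, and no gene passed the adjusted test.

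Among the adherens junction genes, Cdh1, the cadherin that holds the belt of adhesion together, was measured at 865, 902 and 966 CPM in CBPWTp53-floxed, 1087, 872 and 884 in CBPAAp53-floxed, 866, 976 and 1010 in CBPWTp53ΔIEC and 914, 993 and 954 in CBPAAp53ΔIEC. The 4 groups overlapped throughout. Its log2 fold change was 0.06 in CBPAAp53-floxed vs. CBPWTp53-floxed (95% interval -0.20 to 0.31) and 0.04 for averaged p53 deletion (-0.14 to 0.21), with adjusted p = 0.897 and 0.841 from edgeR. Cdh17, a cadherin of the intestinal epithelium that lacks a catenin-binding tail, had a log2 fold change of 0.16 for averaged p53 deletion (SE 0.09, adjusted p = 0.332 from edgeR). Its highest libraries were CBPWTp53ΔIEC replicate 1 at 763 CPM and CBPAAp53ΔIEC replicate 3 at 675 CPM, and the others lay between 521 and 594 CPM. These 2 libraries were also the highest in the small intestine list. The part of the small intestine genes in the Cdh17 values was not tested. The catenin genes Ctnna1 and Ctnnd1 were 0.07 and 0.16 on the log2 scale in CBPWTp53ΔIEC vs. CBPWTp53-floxed, and Afdn (afadin, which links nectins to actin) was -0.07. In CBPWTp53ΔIEC vs. CBPWTp53-floxed, 7 of the 9 adherens junction genes were higher and 2 lower, with a median log2 fold change of 0.07.

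Nectin4, an immunoglobulin-like adhesion molecule, was the lowest of the 34 tested junction genes and the second by p for averaged p53 deletion. It gave 9.25, 8.61 and 7.16 CPM in CBPWTp53-floxed, 8.16, 7.43 and 8.29 in CBPAAp53-floxed, 8.22, 5.83 and 4.75 in CBPWTp53ΔIEC and 6.55, 6.01 and 6.91 in CBPAAp53ΔIEC. In the CBPAA genotype all 3 p53ΔIEC mice lay below all 3 floxed mice, while in the CBPWT genotype CBPWTp53ΔIEC replicate 1 lay within the floxed range. The averaged log2 fold change was -0.36 (SE 0.14, 95% interval -0.66 to -0.05, adjusted p = 0.163 from edgeR). Without CBPWTp53ΔIEC replicate 1, the library highest in small intestine genes, the difference in CBPWTp53ΔIEC vs. CBPWTp53-floxed went from -0.42 to -0.65 and the adjusted p of edgeR from 0.249 to 0.0490, which is past the cutoff. In this comparison 6.06% of all tested genes were called without that library, against 3.15% with it. The part of the small intestine genes in the change of Nectin4 was not tested.

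Among the desmosome genes, Dsp encodes desmoplakin, the plaque protein that binds keratin filaments, and Dsg2 a desmosomal cadherin. Dsp gave 785, 791 and 864 CPM in CBPWTp53-floxed, 856, 609 and 758 in CBPAAp53-floxed, 707, 631 and 605 in CBPWTp53ΔIEC and 600, 587 and 826 in CBPAAp53ΔIEC. The 3 CBPWTp53ΔIEC mice lay below the 3 CBPWTp53-floxed mice, and CBPAAp53ΔIEC replicate 3 lay with the floxed mice. For averaged p53 deletion the log2 fold change was -0.24 for Dsp (SE 0.11, adjusted p = 0.226 from edgeR) and -0.21 for Dsg2 (SE 0.11, adjusted p = 0.296 from edgeR). Both genes have long exons in sum, 9659 bp and 8268 bp, and CBPAAp53-floxed replicate 2, the library that leaned most towards short genes, was the lowest floxed library in both, at 609 and 417 CPM. CBPWTp53ΔIEC replicate 1, which also leaned towards short genes, was instead the highest of its group in both, at 707 and 502 CPM. The lowest of all 12 libraries in both was CBPAAp53ΔIEC replicate 2, at 587 and 415 CPM, where the rank correlation with length was 0.140. The part of length in these values was not tested.

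Pkp2, which encodes a plakophilin of the desmosomal plaque, gave 33.96, 31.7 and 37.0 CPM in CBPWTp53-floxed and 47.7, 41.2 and 39.6 in CBPWTp53ΔIEC, with no overlap. It gave 38.6, 37.2 and 40.5 CPM in CBPAAp53-floxed and 36.3, 38.4 and 40.1 in CBPAAp53ΔIEC, which overlapped. The log2 fold change was 0.32 in the CBPWT genotype (SE 0.10, adjusted p = 0.0939 from edgeR) and -0.02 in the CBPAA genotype (SE 0.10, adjusted p = 0.951), and the interaction was -0.34 (SE 0.14, adjusted p = 0.482), so a difference between the genotypes was not shown. For averaged p53 deletion the log2 fold change was -0.02 for Jup (plakoglobin), -0.02 for Dsc2, a desmosomal cadherin, and 0.06 for Pkp3, another plakophilin.

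A few genes held most of the claudin transcripts. Of the summed claudin TPM, Cldn3 took 37.2% on average over the 12 libraries (35.1% to 40.5%) and Cldn7 33.4% (29.2% to 39.1%), both claudins that close the space between cells. The pore-forming Cldn15 took 10.5% and Cldn2 8.77%, the latter ranging from 5.89% to 12.7%. Cldn8 took 3.16% (1.54% to 5.29%), Cldn4 2.94% (1.77% to 5.10%), Cldn23 2.26% and Cldn12 1.79%. The log2 ratio of the pore claudins (Cldn2 and Cldn15) to the sealing claudins (Cldn1, Cldn3, Cldn4, Cldn7 and Cldn8), given without a test, was -1.997, -1.86 and -1.98 in CBPWTp53-floxed, -2.22, -2.44 and -1.78 in CBPAAp53-floxed, -2.37, -1.62 and -1.87 in CBPWTp53ΔIEC and -1.76, -2.003 and -2.18 in CBPAAp53ΔIEC. The 3 CBPWTp53-floxed mice lay within the range of each other group. The 3 lowest ratios came from CBPAAp53-floxed replicates 2 and 1 and CBPWTp53ΔIEC replicate 1.

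**Figure D3:**
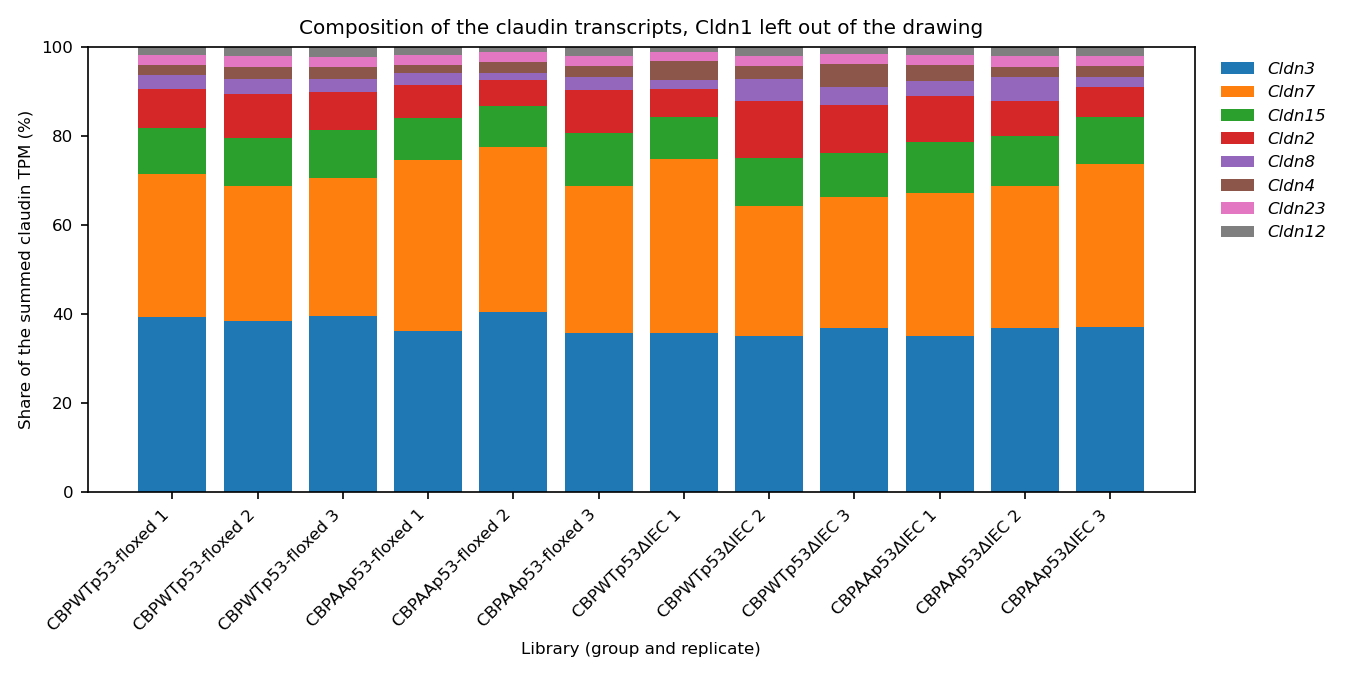
Share of each claudin in the summed claudin TPM (%, stacked bars) for each library, named by group and replicate. Cldn3 and Cldn7 together fill most of every bar, and Cldn2 ranges from 5.89% to 12.7%.

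Cldn4 varied most among the junction genes, with a coefficient of variation of 41.1% over the 12 libraries. It lies on chromosome 5 at 134945119-134946934 (GRCm38, minus strand, 1 exon), 39.3 kb from Cldn3. It gave 51.9, 52.7 and 52.5 CPM in CBPWTp53-floxed, 37.1, 70.0 and 47.9 in CBPAAp53-floxed, 112, 61.9 and 115 in CBPWTp53ΔIEC and 69.9, 44.5 and 49.0 in CBPAAp53ΔIEC. The 3 CBPWTp53-floxed mice were nearly alike and all lay below the CBPWTp53ΔIEC mice, of which replicates 1 and 3 were high. The log2 fold change of CBPWTp53ΔIEC vs. CBPWTp53-floxed was 0.88 (SE 0.27, 95% interval 0.29 to 1.46), with adjusted p = 0.0922 from edgeR, past the fold cutoff and not the p cutoff, while DESeq2 gave 0.87 with adjusted p = 0.0161. The adjusted p over the other settings ran up to 0.273. In CBPAAp53ΔIEC vs. CBPAAp53-floxed the difference was 0.07 (95% interval -0.51 to 0.66), and the interaction of -0.80 (SE 0.38) had adjusted p = 0.485 from edgeR. Cldn3, its neighbour, had a log2 fold change of 0.04 in CBPWTp53ΔIEC vs. CBPWTp53-floxed (95% interval -0.29 to 0.36).

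Cldn8, a sealing claudin of the distal colon, had the second widest spread, at 35.4%. It gave 85.9, 87.0 and 77.6 CPM in CBPWTp53-floxed, 69.9, 53.8 and 75.2 in CBPAAp53-floxed, 61.2, 128 and 116 in CBPWTp53ΔIEC and 88.3, 124 and 57.5 in CBPAAp53ΔIEC. In each p53ΔIEC group 1 mouse lay below all 3 CBPWTp53-floxed mice, and the other 2 lay above them. The 3 libraries lowest in Cldn8, namely CBPAAp53-floxed replicate 2, CBPAAp53ΔIEC replicate 3 and CBPWTp53ΔIEC replicate 1, were the 3 highest in the small intestine list, with sums of 4095, 7389 and 18803 TPM. The averaged log2 fold change of p53 deletion was 0.37 (SE 0.21, 95% interval -0.09 to 0.82, adjusted p = 0.330 from edgeR).

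After these values were seen, Cldn8 was fitted again in other ways. First, CBPWTp53ΔIEC replicate 1 and CBPAAp53ΔIEC replicate 3 were left out together, which gave an averaged log2 fold change of 0.61 with adjusted p = 0.00159 from edgeR. Then the summed level of the small intestine list was added to the model as a covariate, which gave 0.51 with adjusted p = 0.000263. Both settings were chosen after the low Cldn8 of those libraries was known, and the libraries left out were picked partly by it, so neither is evidence of a change in Cldn8, and Cldn8 is reported as not called. Whether the low values come with small intestine tissue in the sample was not tested.

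**Figure D4:**
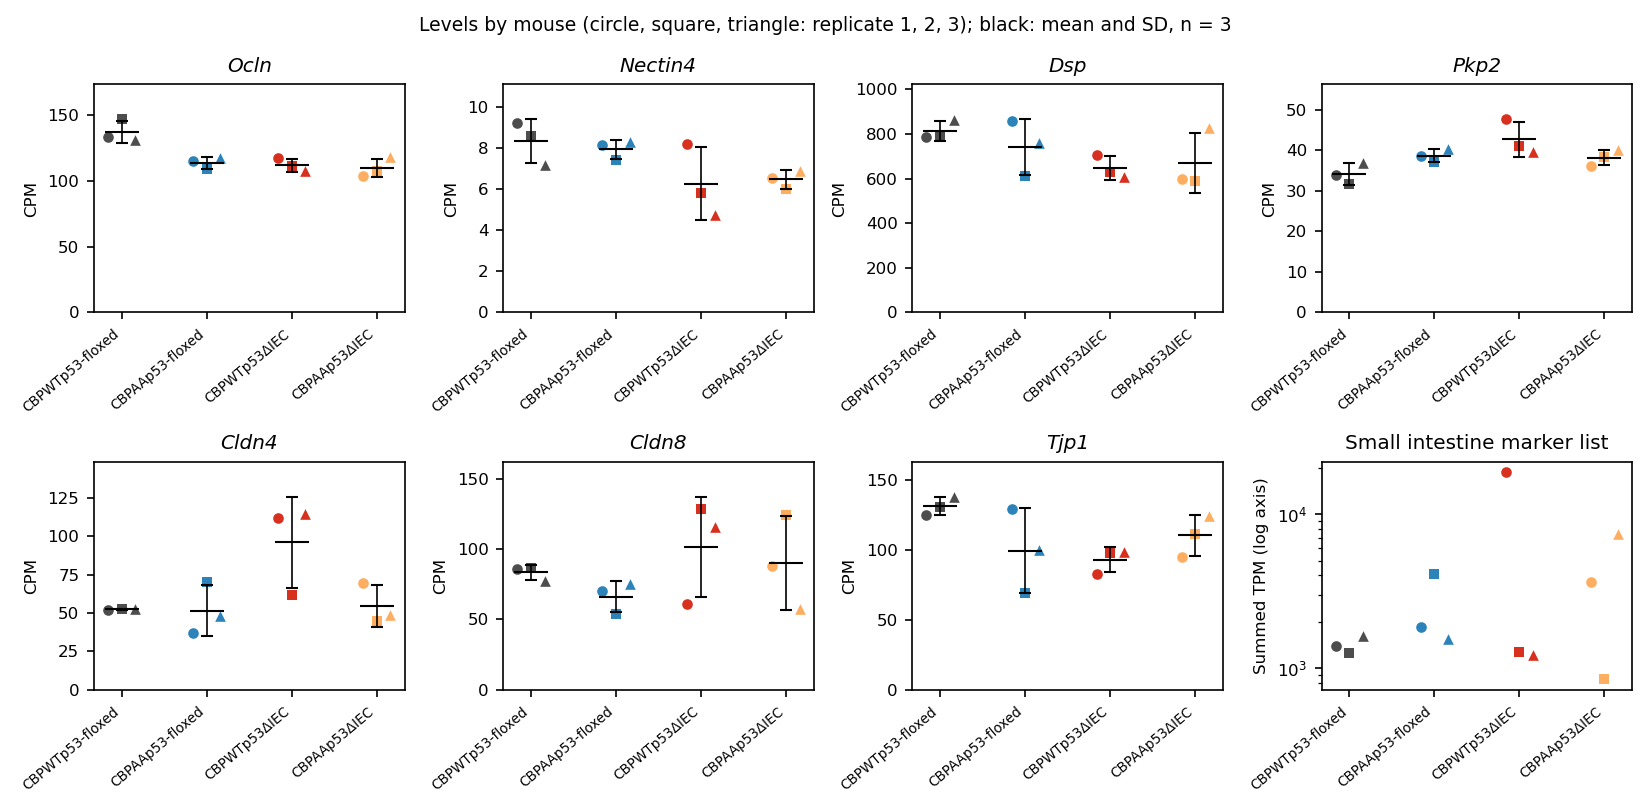
CPM of 7 junction genes by group, with 1 symbol per mouse (circle, square and triangle for replicates 1, 2 and 3) and the mean and SD of 3 mice in black; the last panel gives the summed TPM of the small intestine list on a log axis. Replicate 1 of CBPWTp53ΔIEC and replicate 3 of CBPAAp53ΔIEC are low in Cldn8, at 61.2 and 57.5 CPM, and high in the small intestine list, at 18803 and 7389 TPM.

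Cldn2, a cation and water pore, gave 349, 359 and 306 CPM in CBPWTp53-floxed, 285, 291 and 360 in CBPAAp53-floxed, 305, 477 and 445 in CBPWTp53ΔIEC and 380, 264 and 250 in CBPAAp53ΔIEC, and all groups overlapped. Its log2 fold change in CBPAAp53ΔIEC vs. CBPWTp53ΔIEC was -0.46 (95% interval -0.86 to -0.05, adjusted p = 0.985 from edgeR). Cldn7 lies 0.37 Mb from Trp53 on chromosome 11. It gave 749.7, 646 and 657 CPM in CBPWTp53-floxed, 859.7, 1075 and 716 in CBPAAp53-floxed, 1082, 640.2 and 713 in CBPWTp53ΔIEC and 693, 619.6 and 778 in CBPAAp53ΔIEC. Its log2 fold change was 0.25 in CBPWTp53ΔIEC vs. CBPWTp53-floxed (95% interval -0.17 to 0.66), -0.34 in CBPAAp53ΔIEC vs. CBPAAp53-floxed (-0.76 to 0.08) and 0.37 in CBPAAp53-floxed vs. CBPWTp53-floxed (-0.05 to 0.79). The average for p53 deletion, -0.05 (95% interval -0.34 to 0.25), joins values of opposite sign, and the interaction was -0.59 (SE 0.27, adjusted p = 0.482 from edgeR). The highest libraries, CBPWTp53ΔIEC replicate 1 and CBPAAp53-floxed replicate 2, were those that leaned towards short genes over all tested genes. A link of Cldn7 to gene length was not tested.

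Epcam gave 1068, 999 and 971 CPM in CBPWTp53-floxed, 1133, 1309 and 1023 in CBPAAp53-floxed, 1304, 1088 and 1112 in CBPWTp53ΔIEC and 1060.3, 1013 and 1049 in CBPAAp53ΔIEC. CBPAAp53-floxed replicate 2 and CBPWTp53ΔIEC replicate 1 were again the highest, and a link of Epcam to gene length was not tested. The log2 fold change of Epcam was 0.21 in CBPWTp53ΔIEC vs. CBPWTp53-floxed (95% interval -0.05 to 0.46), where the groups did not overlap, and -0.15 in CBPAAp53ΔIEC vs. CBPAAp53-floxed (-0.41 to 0.11), where they did. The average for p53 deletion was 0.03 (95% interval -0.15 to 0.21, adjusted p = 0.882 from edgeR), and the interaction was -0.36 (SE 0.17, adjusted p = 0.483 from edgeR).

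Ocln, which encodes occludin, a membrane protein of the tight junction strand, had the smallest p for averaged p53 deletion among the junction genes. It lies on chromosome 13 at 100496507-100552718 (GRCm38, minus strand), 43.2 kb from Marveld2, which encodes the related protein tricellulin. Ocln gave 134, 147 and 131.3 CPM in CBPWTp53-floxed, 115, 109.04 and 117 in CBPAAp53-floxed, 117, 111 and 108 in CBPWTp53ΔIEC and 104, 108 and 118 in CBPAAp53ΔIEC. The 3 CBPWTp53-floxed mice lay above the 9 others, which overlapped among themselves. The log2 fold change was -0.27 in CBPAAp53-floxed vs. CBPWTp53-floxed (SE 0.09, adjusted p = 0.618 from edgeR), -0.29 in CBPWTp53ΔIEC vs. CBPWTp53-floxed (SE 0.09, adjusted p = 0.0864) and -0.05 in CBPAAp53ΔIEC vs. CBPAAp53-floxed (95% interval -0.24 to 0.15). The first 2 comparisons share the CBPWTp53-floxed libraries. DESeq2 gave -0.30 with adjusted p = 0.0205 for CBPWTp53ΔIEC vs. CBPWTp53-floxed, which passes the p cutoff and not the fold cutoff. Marveld2 was -0.23 in that comparison (SE 0.10, adjusted p = 0.187 from edgeR), and F11r (JAM-A), an immunoglobulin-like junction protein, was -0.01.

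Tjp1, which encodes the scaffold ZO-1, gave 125, 130.9 and 138 CPM in CBPWTp53-floxed, 130, 69.0 and 100 in CBPAAp53-floxed, 82.9, 98.1 and 98.5 in CBPWTp53ΔIEC and 95.4, 112 and 125 in CBPAAp53ΔIEC. The CBPWTp53-floxed mice lay above the CBPWTp53ΔIEC mice, and the 2 lowest libraries, CBPAAp53-floxed replicate 2 and CBPWTp53ΔIEC replicate 1, were those that leaned towards short genes. The exons of Tjp1 sum to 7811 bp, against a median of 4225 bp for the junction genes. Its log2 fold change in CBPWTp53ΔIEC vs. CBPWTp53-floxed was -0.50 (SE 0.18, adjusted p = 0.142 from edgeR). It passed the cutoff without CBPAAp53-floxed replicate 2, at -0.51 with adjusted p = 0.0385 from edgeR. That library is in neither group compared and enters only through the filter, the scaling and the spread estimated over all libraries. Tjp1 also passed in edgeR on these 2 groups only, at -0.50 with adjusted p = 0.0228. In these 2 settings 4.08% and 5.11% of all tested genes were called. The part of gene length in the Tjp1 values was not tested. Tjp3 (ZO-3) and Cgn (cingulin), the other scaffolds, were 0.04 and 0.07 in the same comparison. Among the polarity genes, Pard6b had the smallest p in CBPAAp53ΔIEC vs. CBPAAp53-floxed, at -0.34 (SE 0.16, adjusted p = 0.395 from edgeR).

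The wider junction gene list held 69 genes that are not among the 35, of which 66 were in the table and 42 were tested. In CBPWTp53ΔIEC vs. CBPWTp53-floxed 1 of these 42 rose and 0 fell, where 3.15% of all tested genes were called, and in the other 6 comparisons none was called. The gene that rose was Lsr, which encodes angulin-1, the protein that brings tricellulin to the points where 3 cells meet. It gave 103, 110 and 104 CPM in CBPWTp53-floxed, 111, 122 and 124 in CBPAAp53-floxed, 175, 154.2 and 148 in CBPWTp53ΔIEC and 146, 156 and 135 in CBPAAp53ΔIEC. All 6 p53ΔIEC mice lay above all 6 floxed mice. The share of all tested genes that separate in this way was not counted. The log2 fold change was 0.59 in CBPWTp53ΔIEC vs. CBPWTp53-floxed (SE 0.10, adjusted p = 0.0225 from edgeR) and 0.29 in CBPAAp53ΔIEC vs. CBPAAp53-floxed (SE 0.10, adjusted p = 0.330). The call was lost when any 1 CBPWTp53-floxed library or CBPWTp53ΔIEC replicate 2 or 3 was left out, with adjusted p from 0.0561 to 0.154 and log2 fold changes from 0.56 to 0.64. For averaged p53 deletion Lsr passed the p cutoff and not the fold cutoff when single libraries were left out. Its log2 fold change was then 0.40 to 0.46, with adjusted p from 0.00144 to 0.0445 from edgeR. Over the 12 libraries, all 20 genes of a proliferation list (Mki67 and Top2a among them) rose with averaged p53 deletion, with a median log2 fold change of 1.69. The rise was uneven between mice. The list summed to 198 to 291 TPM in the floxed libraries and to 245 TPM in CBPAAp53ΔIEC replicate 3. It reached 357 TPM in CBPWTp53ΔIEC replicate 1 and 661 to 852 TPM in the remaining p53ΔIEC libraries. All 20 were called for averaged p53 deletion, where 3.50% of all tested genes were. In CBPWTp53ΔIEC vs. CBPWTp53-floxed all 20 were higher and 17 were called, against 3.15% of all tested genes. In CBPAAp53ΔIEC vs. CBPAAp53-floxed all 20 were higher and 0 were called, against 0.0274%. In bulk RNA, fewer cells of a type and less RNA per cell cannot be told apart.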

How the data were processed

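Colonic crypts were released from the tissue of 12 mice with EDTA, and stranded mRNA libraries were sequenced. The authors deposited 1 table that gives each gene's raw count and its TPM in every library. It also holds fold changes and p-values from their tests, which were not used. The submitters' processing notes name fastp 0.20.0, FastQC 0.11.9, HISAT2 2.1.0, SAMtools 1.9, featureCounts and Subread 2.0.1, and the build GRCm38. Whether strand was used in counting is not given in the sources used here, so exons that another gene overlaps (Ctnna1, Ctnnd1, Nectin2, Afdn, Dsp, Dsg2, Cldn3 and Tjp3) may hold shared reads. Groups were taken from the genotype labels, read with the series' design text.

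From the counts, edgeR 4.0.16 (in R 4.3.3) fitted all 12 libraries together, with group as the single factor, by its robust quasi-likelihood method. Genes had first passed filterByExpr at min.count 10, and libraries were scaled by TMM. P-values were adjusted by Benjamini-Hochberg over all tested genes, and intervals are 95%. TPM was used for levels between genes and for claudin shares. Positions and exon lengths came from GENCODE M21 (GRCm38). The genes named were Cdh1, Epcam and Ocln, any junction gene at the cutoff, and those with the smallest p for averaged p53 deletion up to 10 genes, which added Nectin4, Cldn4, Dsp, Pkp2, Dsg2, Cldn8 and Cdh17. Other genes, such as Tjp1, Cldn2 and Pard6b, were named after their values were seen. The members and lists were chosen with earlier results of these data known. The functions were tested on simulated data. Alternatives were DESeq2 1.42.0, its size factors in edgeR, other filters, a replicate block, each library left out, 2 groups only, and no fold cutoff; 2 more were added after the data were seen. The mice of a group are taken as separate animals from the labels.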

Additional observations from a re-analysis of the deposited data

How the results depend on the processing

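The count of junction genes at the cutoff was 0 of 34 in all 7 comparisons, and it stayed 0 with DESeq2's size factors, with no filter on low counts, with at least 10 counts in every library and with the adjusted p alone. In CBPWTp53ΔIEC vs. CBPWTp53-floxed it was 1 with DESeq2 (Cldn4), 1 in edgeR on these 2 groups only (Tjp1), and from 0 to 1 when single libraries were left out (Tjp1 without CBPAAp53-floxed replicate 2, Nectin4 without CBPWTp53ΔIEC replicate 1). Of all genes, 6.17% of those with an adjusted p were called in that comparison with DESeq2, and 5.11% of those tested on the 2 groups only. The share of all tested genes was 4.08% without CBPAAp53-floxed replicate 2 and 6.06% without CBPWTp53ΔIEC replicate 1. Leaving out single libraries gave 0 in the other 6 comparisons, where at most 7.18% of all tested genes were called.

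Of the settings chosen after the data were seen, leaving out both p53ΔIEC libraries highest in the small intestine list gave 2 in CBPWTp53ΔIEC vs. CBPWTp53-floxed (Nectin4 and Cldn8), 1 in CBPAAp53ΔIEC vs. CBPAAp53-floxed (Cldn8) and 1 for averaged p53 deletion (Cldn8), and the small intestine covariate gave 1 (Cldn8) in CBPWTp53ΔIEC vs. CBPWTp53-floxed and 1 (Cldn8) for averaged p53 deletion. The cause of these changes was not tested. Those settings also raised the calls among all tested genes for averaged p53 deletion from 511 to 1697 and 1261, or 11.4% and 8.63%. Leaving out both libraries called 9.23% of all tested genes in CBPWTp53ΔIEC vs. CBPWTp53-floxed and 8.12% in CBPAAp53ΔIEC vs. CBPAAp53-floxed. With the covariate, 8.79% were called in CBPWTp53ΔIEC vs. CBPWTp53-floxed.

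With the replicate number as a block (replicate block), 0 of 34 junction genes were called in all 7 comparisons, while the calls among all genes fell from 460 to 32 in CBPWTp53ΔIEC vs. CBPWTp53-floxed and from 511 to 304 for averaged p53 deletion, and Lsr lost its call (adjusted p = 0.0516 from edgeR). Libraries with the same number correlated in their deviations between -0.526 and 0.548, above 0.1 in 3 of 18 pairs. Pairs with different numbers ran from -0.657 to 0.643, above 0.1 in 12 of 36. The labels name no pairing, and these correlations cannot show whether mice with the same number shared a litter or a preparation.

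As shares of counts, which weigh long transcripts more, Cldn2 took 15.5%, Cldn3 24.996%, Cldn12 4.03% and Cldn15 11.8% of the claudins. With 3 mice per group the intervals of Cldn4 and Cldn8 reach past 0.5 on the log2 scale in each comparison of 2 groups, so changes of that size in them cannot be seen or dismissed here.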
